A study of Mus musculus with 28 samples.

Results

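The Elovl genes encode the fatty acid elongases, and all 7 members of the mouse family (Elovl1 to Elovl7) were followed here through RNA sequencing of interfollicular epidermis (IFE), the skin surface between hair follicles. They were found by symbol among 55536 gene identifiers of the count files, and 6 of the 7 had enough counts to be tested. The data comprised 28 libraries in 12 groups from mice of 4 lines. Each line carried a CreER, a Cre recombinase that works only in the presence of tamoxifen, which the labels call Slc1a3, Aspm, Dlx1 or K14 (keratin 14) CreER. A Rosa-tdTomato reporter was present in all of them, so that cells in which Cre was active, and their progeny, become red. All mice were given as WT apart from these alleles. Tamoxifen was given to all on 5 days, postnatal days 30 to 34. The harvest followed at postnatal day 49, when hair follicles were resting (telogen). Tail skin gave labelled Slc1a3+, Aspm+ and Dlx1+ cells and the total IFE of each of these lines, with 2 libraries per group. Back skin gave labelled Slc1a3+ and Aspm+ cells and their totals, with 3 libraries per group, and labelled K14+ cells and their total, with 2 libraries per group. Labelled cells came from the gate named P6 and total IFE from the gate named P5. The stated aim was to compare expression among the lineages of basal cells, and there was no untreated group. The sources used here give neither whether a CreER is a transgene or an insertion nor whether libraries came from separate mice, so the p-values below measure the spread between these libraries, which may be technical.

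Fatty acids longer than those made by fatty acid synthase are built in the endoplasmic reticulum by a cycle of reactions that lengthens the chain by a pair of carbons per turn. The elongases carry out the first, rate-limiting condensation, and each prefers acyl chains of a certain length and saturation. The later steps are shared by a ketoacyl-CoA reductase, dehydratases and an enoyl-CoA reductase. In the epidermis, very long and ultra-long chains enter the ceramides of the water barrier, and in sebaceous glands they enter the waxes and other neutral lipids of sebum. In bulk libraries such as these, fewer cells of a type and less RNA per cell cannot be told apart.

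Besides Elovl3, expression of 3 members, Elovl4, Elovl6 and Elovl5, differed between tail and back total IFE, and their promoters are shown, with matches to searched motifs in capitals. Each line holds 250 bases before and 50 bases after the transcription start that RefSeq gives in the build GRCm38.p6, read 5′ to 3′ on the strand of the gene. Promoter entries matched 6 of the 7 members, all but Elovl3.
Elovl4 (chr9:83806256-83806555, minus strand): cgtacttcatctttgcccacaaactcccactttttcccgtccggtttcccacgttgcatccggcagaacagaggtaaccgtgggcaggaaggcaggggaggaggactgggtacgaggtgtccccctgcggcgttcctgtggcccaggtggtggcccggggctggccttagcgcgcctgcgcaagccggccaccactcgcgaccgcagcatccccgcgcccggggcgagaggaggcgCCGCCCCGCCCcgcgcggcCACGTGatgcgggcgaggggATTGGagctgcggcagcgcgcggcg
Elovl6 (chr3:129532136-129532435, plus strand): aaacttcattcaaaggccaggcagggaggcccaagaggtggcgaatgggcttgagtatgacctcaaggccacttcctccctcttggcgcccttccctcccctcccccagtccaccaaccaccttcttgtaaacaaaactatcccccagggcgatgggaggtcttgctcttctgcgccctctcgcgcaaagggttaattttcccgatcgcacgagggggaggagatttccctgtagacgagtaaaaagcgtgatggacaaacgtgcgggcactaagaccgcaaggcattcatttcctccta
Elovl5 (chr9:77917115-77917414, plus strand): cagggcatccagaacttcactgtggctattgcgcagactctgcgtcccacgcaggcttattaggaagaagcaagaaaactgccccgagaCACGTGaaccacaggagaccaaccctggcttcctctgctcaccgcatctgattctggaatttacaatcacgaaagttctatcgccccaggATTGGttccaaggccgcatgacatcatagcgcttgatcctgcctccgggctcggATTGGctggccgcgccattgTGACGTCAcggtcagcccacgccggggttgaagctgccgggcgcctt

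The motifs searched on both strands were the TATA box (TATAAA), the CCAAT box (CCAAT), the GC box (GGGCGG), the E-box (CACGTG), the cAMP response element (TGACGTCA) and the sterol regulatory element (TCACCCCAC). Among 32851 promoters of the same length these were found in 13.6%, 37.4%, 35.7%, 7.15%, 1.79% and 0.551%. The Elovl4 window held an E-box starting 5 bases after the start. On the other strand it held a CCAAT box and a pair of GC boxes that overlap by 1 base. The Elovl5 window held an E-box, a pair of CCAAT boxes on the other strand and a cAMP response element across bases 3 to 10 after the start. None of these letters occurred in the Elovl6 window. These matches describe the sequences only.

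The libraries held 7738262 to 37670589 counts (median 20193388), and 17493 genes passed the filter on low counts. The library back Slc1a3 total replicate 4 stood apart: it was the smallest, detected 14436 genes and took 0.208% of its counts from mitochondrial genes. The unit of level is CPM (read counts set to a common library size), and log2 fold changes come from edgeR's quasi-likelihood test with a standard error (SE). A gene passed at a Benjamini-Hochberg adjusted p under 0.05 over all 17493 genes. Summed CPM of 6 basal IFE markers ran from 54000 to 118000 and of 7 spinous and granular markers from 6630 to 14700, with neither near 0 in any library. Of the genes that name the lines, Slc1a3 was higher in tail Slc1a3+ cells than in their total (19.0 against 8.01 CPM, log2 fold change 1.25, adjusted p = 0.0279). In back Slc1a3+ cells it did not pass by the same test (25.6 against 18 CPM, 0.51, adjusted p = 0.837). No other line's own gene passed in its labelled cells.

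Read per kilobase of merged exon, the family fell into levels that differed by site. In tail libraries of the Slc1a3 and Aspm lines Elovl4 was the highest member, at 29.3 to 50.2 CPM per kb, above Elovl1 at 19.6 to 24.4, Elovl3 at 9.74 to 17.8 and Elovl7 at 9.59 to 16.3 CPM per kb. In tail libraries of the Dlx1 line Elovl1 led at 17.5 to 20.5 CPM per kb, Elovl7 had 11.3 to 14.1 and Elovl4 only 5.87 to 11.7 CPM per kb. In back skin Elovl1 had a median of 28.8 CPM per kb, against 18 for Elovl4 and 16.7 for Elovl7. Elovl5 and Elovl6 had medians over all 28 libraries of 6.74 and 5.12 CPM per kb. Elovl3 differed most between the sites, with a median of 13.1 CPM per kb in tail and 0.0477 in back skin.

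Elovl2, which in mammals extends polyunsaturated chains in liver, testis and retina, was close to absent (ENSMUSG00000021364, chr13:41182381-41220405, minus strand). It had no count in 17 of 28 libraries and 48 counts in all, with a highest value of 14 counts, or 0.72 CPM, in a single library. A count of 0 allows a level of up to 0.0854 to 0.383 CPM, taking 3 counts per library, and this limit covers counting error only. Elovl2 was below the filter and was tested in none of the comparisons.

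**Figure D1:**
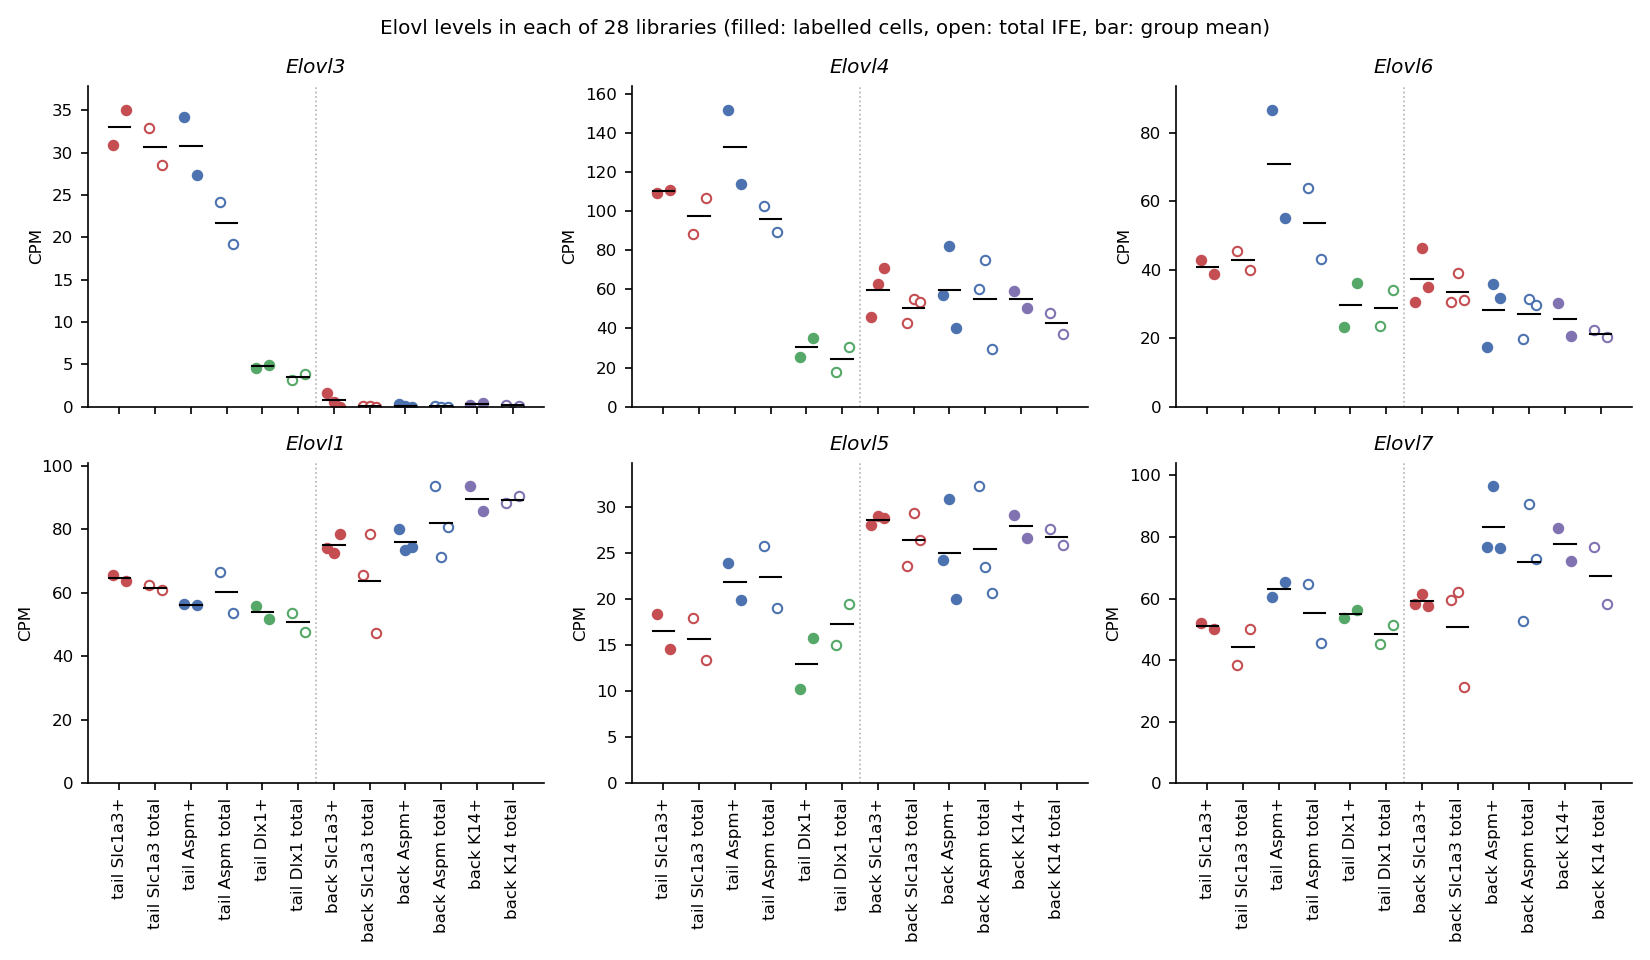
Level of each tested member (CPM, linear axes from 0) in the 28 libraries, by group, tail groups to the left of the dotted line and back groups to the right. Filled points are labelled cells, open points total IFE, and bars group means. Elovl3 lies between 3.13 and 35.1 CPM in tail and at or below 1.66 CPM in back libraries, and the tail Dlx1 libraries lie below the other tail libraries for Elovl3 and Elovl4.

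The sites were compared within total IFE (the mean of the Slc1a3 and Aspm lines, which were sampled at both sites), within Slc1a3+ cells and within Aspm+ cells. Elovl3 and Elovl4 were higher in tail than in back skin in all 3 comparisons, Elovl6 in total IFE and Aspm+ cells. Elovl5 was lower in tail in total IFE and Slc1a3+ cells, and Elovl1 in Aspm+ cells. In total IFE 3 of 6 tested members were higher and 1 lower, where 22.5% and 23.7% of all tested genes were. In Slc1a3+ cells 2 were higher and 1 lower, with 19.0% and 21.6% of all genes. In Aspm+ cells 3 were higher and 1 lower, with 12.7% and 14.5% of all genes. A difference between the sites was therefore common in the transcriptome, and the counts of members are to be read against it. Sites without overlap were also seen for members that did not pass. These were Elovl1 in Slc1a3+ cells and Elovl7 in Slc1a3+ and Aspm+ cells (adjusted p = 0.299, 0.496 and 0.22 by edgeR). The share of all genes whose libraries did not overlap was not determined.

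Elovl3 makes saturated and monounsaturated very long chains, and in mice it is known from sebaceous glands, hair follicles and brown fat (ENSMUSG00000038754, chr19:46131897-46135694, plus strand). In tail total IFE it had 32.9 and 28.5 CPM in the Slc1a3 line and 24.2 and 19.2 CPM in the Aspm line. In back total IFE it had 0.103, 0.128 and 0 CPM in the Slc1a3 line and 0.0702, 0 and 0 CPM in the Aspm line. The tail libraries were all higher, and the back values rested on 8 counts in 6 libraries. The ratio of summed counts, scaled for library size, was 411 (95% exact interval 208 to 953, covering counting error only), and the fitted log2 fold change was 8.74 ± 0.563 (SE, adjusted p = 1.09e-11). In labelled cells Elovl3 had 30.9 and 35.1 CPM in tail Slc1a3+ cells and 1.66, 0.513 and 0 CPM in back Slc1a3+ cells. These groups did not overlap either, with a ratio of summed counts of 42.3 (30.9 to 59.6) and a log2 fold change of 5.44 ± 0.602 (adjusted p = 1.96e-07). Tail Aspm+ cells had 34.2 and 27.4 CPM and back Aspm+ cells 0.254, 0.0854 and 0 CPM. There the ratio was 291 (147 to 675) and the log2 fold change 8.07 ± 0.722 (adjusted p = 1.03e-08).

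Markers of sebaceous cells were also higher in tail skin. Of 10 listed genes 9 were tested, and 8 passed as higher and 0 as lower in tail than in back total IFE (22.5% and 23.7% of all genes). Their summed level was 353 to 448 CPM in the 4 tail total libraries of the Slc1a3 and Aspm lines and 49.9 to 77.0 CPM in the 6 back ones. Awat1, a wax synthase of sebaceous glands, had 6.33 to 12.6 CPM in tail libraries of these lines and at most 0.399 CPM in back libraries, where its median was 0. Between 1 and 8 of the 10 genes were at 0 in each back library and 0 to 2 in each of these tail libraries. A gene near 0 in back skin can pass the low-count filter through tail libraries alone, which favours a call of higher in tail. Melanocyte markers were also higher in tail total IFE (5 of 5 tested, summed level 16.3 to 28.7 CPM in tail libraries of these lines and 3.55 to 15.5 CPM in back libraries), as were bulge and germ markers of the hair follicle (7 of 8). Of the other lists in the same comparison, 2 of 5 fibroblast markers were higher, 4 of 5 Langerhans and T cell markers lower, and 0 of 2 adipocyte and 0 of 4 endothelial markers passed. Spinous and granular markers had 2 higher and 1 lower of 7, and basal markers 3 higher and 2 lower of 6. The part of these cells in the differences of Elovl3 and the other members was not tested.

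Elovl4 makes the ultra-long chains of the acylceramides that seal the cornified layer, and mice without it die at birth with a leaking barrier (ENSMUSG00000032262, chr9:83778692-83806277, minus strand). In tail total IFE it had 88.6 and 106.7 CPM in the Slc1a3 line and 102.7 and 89.5 CPM in the Aspm line. In back total IFE it had 43.0, 55 and 53.7 CPM in the Slc1a3 line and 60.4, 75.0 and 29.6 CPM in the Aspm line. Every one of these tail libraries was above every back library, with a log2 fold change of 0.88 ± 0.214 (adjusted p = 0.00168). With all 3 lines of each site averaged (adding Dlx1 in tail and K14 in back skin), a comparison chosen after the values were seen, it was 0.32 and did not pass (adjusted p = 0.167). The tail Dlx1 libraries had 17.8 to 35.4 CPM. In labelled cells Elovl4 had 109.5 and 110.8 CPM in tail Slc1a3+ cells, against 45.8, 62.7 and 70.9 CPM in back Slc1a3+ cells. It had 152 and 113.9 CPM in tail Aspm+ cells, against 57.4, 82.3 and 40.0 CPM in back Aspm+ cells. Neither pair of groups overlapped, and the log2 fold changes were 0.88 ± 0.302 (adjusted p = 0.0226) and 1.15 ± 0.301 (adjusted p = 0.00595). The call in Slc1a3+ cells was lost without back replicate 1 (adjusted p = 0.0904) and without tail replicate 1 or 2 (0.102 and 0.0951), and that in Aspm+ cells without tail replicate 1 (0.0886).

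Elovl6 lengthens the saturated product of fatty acid synthase by a pair of carbons and so supplies substrate for the stearoyl-CoA desaturases (ENSMUSG00000041220, chr3:129532355-129638495, plus strand). In tail total IFE it had 45.5 and 40.0 CPM in the Slc1a3 line and 63.8 and 43.3 CPM in the Aspm line. In back total IFE it had 30.6, 38.9 and 31.1 CPM in the Slc1a3 line and 19.9, 31.6 and 29.7 CPM in the Aspm line. The groups did not overlap, although the lowest tail value was close to the highest back value, and the log2 fold change was 0.67 ± 0.203 (adjusted p = 0.00944). Without tail Aspm total replicate 1 the difference no longer passed (0.52, adjusted p = 0.0821). The tail Dlx1 libraries, which are not in this comparison, had 23.4 to 36.2 CPM, within the 17.4 to 46.3 CPM of all back libraries. With all 3 lines of each site averaged the call was kept. In tail Aspm+ cells Elovl6 had 86.7 and 55.1 CPM, against 17.4, 35.9 and 31.9 CPM in back Aspm+ cells, a log2 fold change of 1.32 ± 0.284 (adjusted p = 0.00114). Without tail Aspm+ replicate 1, the highest Elovl6 value of the series, it was 0.98 (adjusted p = 0.0561). In tail Slc1a3+ cells Elovl6 had 42.8 and 38.8 CPM, against 30.6, 46.3 and 34.8 CPM in back Slc1a3+ cells, and these overlapped (0.13 ± 0.289, adjusted p = 0.746). The site difference was larger in Aspm+ than in Slc1a3+ cells by 1.19 ± 0.41, which did not pass (unadjusted p = 0.00795, adjusted p = 0.194 in edgeR's quasi-likelihood test).

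Elovl5 extends polyunsaturated chains of intermediate length (ENSMUSG00000032349, chr9:77917364-77984519, plus strand). In tail total IFE it had 17.9 and 13.4 CPM in the Slc1a3 line and 25.7 and 19.0 CPM in the Aspm line. In back total IFE it had 23.6, 29.3 and 26.4 CPM in the Slc1a3 line and 32.2, 23.5 and 20.7 CPM in the Aspm line. The groups overlapped and the log2 fold change was -0.48 ± 0.166 (adjusted p = 0.0224). It did not pass without back Aspm total replicate 1, tail Slc1a3 total replicate 2 or tail Aspm total replicate 2 (adjusted p = 0.07, 0.139 and 0.133), with no low-count filter (0.0716) or with only the compared groups fitted (0.0606). In Slc1a3+ cells the sites were fully separated, with 18.4 and 14.6 CPM in tail and 28, 29.0 and 28.9 CPM in back cells. The log2 fold change there was -0.80 ± 0.238 (adjusted p = 0.0101), and it was lost without tail Slc1a3+ replicate 2 (-0.65, adjusted p = 0.125). In Aspm+ cells the values overlapped, with 23.9 and 19.9 CPM in tail and 24.2, 30.8 and 20.1 CPM in back cells (-0.19 ± 0.232, adjusted p = 0.581).

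Elovl1 and Elovl7 both lengthen saturated very long chains, Elovl1 being the broadly expressed enzyme that feeds ceramide synthesis (ENSMUSG00000006390, chr4:118428093-118432953, plus strand). Elovl7 lies at chr13:108214404-108285683 on the plus strand (ENSMUSG00000021696). Elovl1 had 53.5 to 66.6 CPM in the 8 tail libraries of the Slc1a3 and Aspm lines and 47.3 to 93.5 CPM in the 16 back libraries. Its difference passed in Aspm+ cells, where both tail libraries had 56.2 to 56.3 CPM and the back libraries 73.4 to 80.0 CPM (-0.43 ± 0.162, adjusted p = 0.0492). That call did not hold under DESeq2's test (adjusted p = 0.0502), DESeq2's size factors (0.0694), no low-count filter (0.168) or the compared groups alone (0.0877), nor without any 1 of the 5 libraries (0.0715 to 0.247). In total IFE Elovl1 was at -0.25 (adjusted p = 0.0733). It passed there by limma-voom (-0.27, adjusted p = 0.0478) and with all 3 lines of each site averaged (-0.44, adjusted p = 0.000578). Without back Slc1a3 total replicate 4, which had 47.3 CPM against 65.5 to 93.5 CPM in the other back libraries, it was -0.34 and passed (adjusted p = 0.00491), as it did without back Aspm total replicate 2 (-0.30, adjusted p = 0.0448). Elovl7 had 38.5 to 65.4 CPM in the same 8 tail libraries and 31.1 to 96.5 CPM in back libraries, and in total IFE it was at -0.29 (adjusted p = 0.157). With all 3 lines of each site averaged it was -0.36 and passed (adjusted p = 0.0427). Without that library, whose 31.1 CPM was the lowest Elovl7 value of the series, it was -0.41 and passed (adjusted p = 0.0168). Elovl1 shares 53 exon bases with Cdc20 on the other strand, and the library kit did not record strand.

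**Figure D2:**
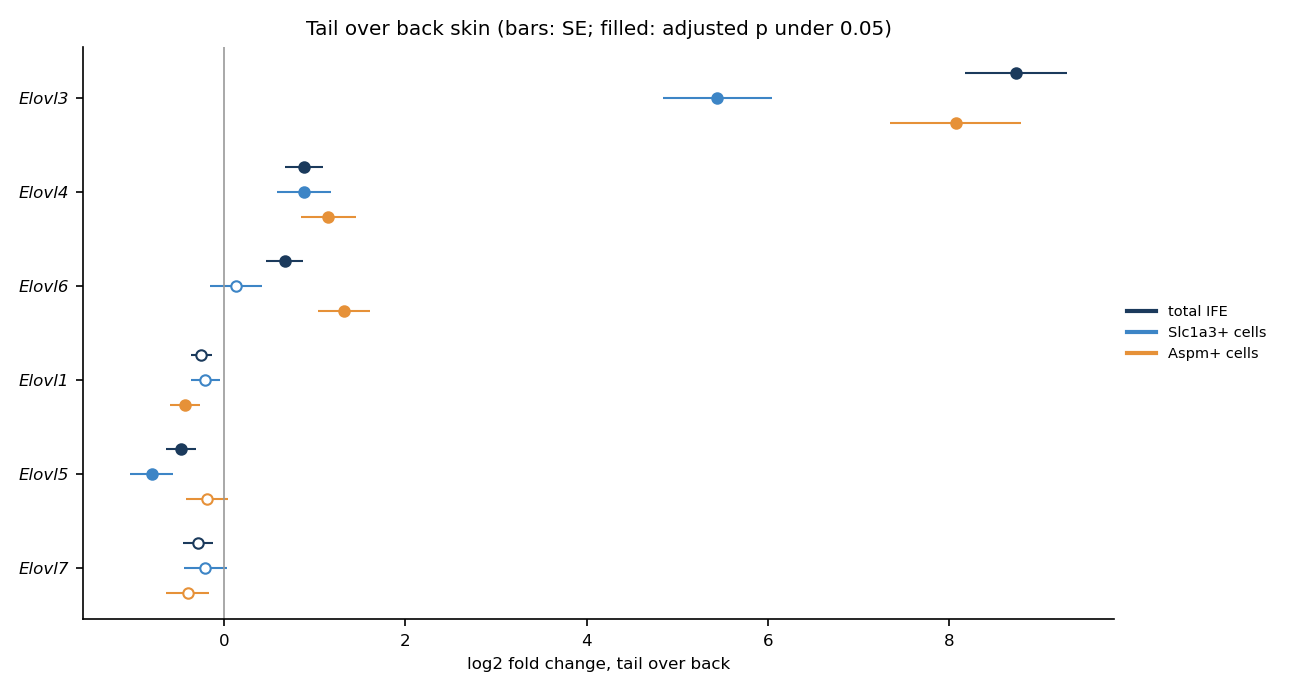
Log2 fold change, tail over back, of each tested member in total IFE, Slc1a3+ cells and Aspm+ cells. Points are estimates, bars standard errors, and filled points have an adjusted p under 0.05. Elovl3 stands at 5.44 to 8.74, Elovl4 at 0.88 to 1.15, and Elovl1, Elovl5 and Elovl7 are below 0 in all 3 comparisons.

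Within tail skin the lines were compared with each other, in labelled cells and in total IFE. Elovl4 was lower in the Dlx1 line than in the Slc1a3 and Aspm lines in all 4 comparisons, and Elovl3 in the comparisons with the Slc1a3 line. Between Slc1a3+ and Dlx1+ cells 2 of 6 members passed as higher, where 2.31% of all genes did. Between Aspm+ and Dlx1+ cells 1 of 6 did, where 0.08% of all genes did. In total IFE 2 of 6 were higher in the Slc1a3 line (0.978% of all genes) and 1 of 6 in the Aspm line (0.0343%). No member was lower in these comparisons, which share the Dlx1 libraries.

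Elovl4 had 109.5 and 110.8 CPM in tail Slc1a3+ cells and 152 and 113.9 CPM in tail Aspm+ cells, against 25.6 and 35.4 CPM in tail Dlx1+ cells. The Dlx1+ libraries were the lowest of the labelled tail libraries, with log2 fold changes of 1.85 ± 0.346 for Slc1a3+ over Dlx1+ (adjusted p = 0.00421) and 2.12 ± 0.349 for Aspm+ over Dlx1+ (adjusted p = 0.00873). In total IFE it had 88.6 and 106.7 CPM in the Slc1a3 line and 102.7 and 89.5 CPM in the Aspm line, against 17.8 and 30.8 CPM in the Dlx1 line. Those log2 fold changes were 2.01 ± 0.348 (adjusted p = 0.00935) and 1.98 ± 0.347 (adjusted p = 0.0326). The 4 libraries of the Dlx1 line, at 17.8 to 35.4 CPM, overlapped only the lower end of the 16 back libraries, which had 29.6 to 82.3 CPM. Slc1a3+ over Dlx1+ passed without any 1 library (adjusted p at most 0.0441). The other calls of Elovl4 were lost without single libraries. For Aspm+ over Dlx1+ these were tail Aspm+ replicate 1 and Dlx1+ replicates 1 and 2 (adjusted p = 0.0746, 0.261 and 0.132). For the Slc1a3 totals they were tail Slc1a3 total replicate 1 and Dlx1 total replicate 1 (0.0624 and 0.0627), and for the Aspm totals any 1 of the 4 (0.104 to 1). Over all alternative settings, those without 1 library among them, the log2 fold changes of the 4 comparisons ran from 1.63 to 2.44.

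Elovl3 had 30.9 and 35.1 CPM in tail Slc1a3+ cells and 34.2 and 27.4 CPM in tail Aspm+ cells, against 4.53 and 4.96 CPM in tail Dlx1+ cells. Slc1a3+ cells were thus higher, with a log2 fold change of 2.80 ± 0.6 (adjusted p = 0.0105), and Aspm+ cells did not pass by edgeR (2.7 ± 0.597, adjusted p = 0.0812) while they did by DESeq2 (2.71, adjusted p = 9.22e-05) and limma-voom (2.68, adjusted p = 0.000373). Without back Slc1a3 total replicate 4 Elovl3 in Aspm+ cells passed by edgeR too (adjusted p = 0.0242). In total IFE Elovl3 had 32.9 and 28.5 CPM in the Slc1a3 line and 24.2 and 19.2 CPM in the Aspm line, against 3.13 and 3.89 CPM in the Dlx1 line. The Slc1a3 line was higher (3.12 ± 0.608, adjusted p = 0.0188), and the Aspm line was at 2.63 ± 0.597 (adjusted p = 0.174), again passing by DESeq2 and limma-voom (adjusted p = 0.000369 and 0.00158). The calls with the Slc1a3 line were lost without tail Slc1a3+ replicate 1 or a Dlx1+ replicate (adjusted p = 0.0652, 0.062 and 0.141), and without tail Slc1a3 total replicate 1 or a Dlx1 total replicate (0.192, 0.0769 and 0.237), with fold changes of 2.72 to 3.28. Elovl3 in the Dlx1 line was still above every back library, the lowest Dlx1-line value being 3.13 CPM and the highest back value 1.66 CPM.

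The other members differed less between the tail lines. Elovl6 had 86.7 and 55.1 CPM in tail Aspm+ cells, against 23.4 and 36.2 CPM in tail Dlx1+ cells, which did not overlap. Its log2 fold change of 1.25 ± 0.32 did not pass by edgeR (unadjusted p = 0.000688, adjusted p = 0.204) and passed by DESeq2 (adjusted p = 0.0253). Elovl5 had 23.9 and 19.9 CPM in Aspm+ cells and 10.2 and 15.7 CPM in Dlx1+ cells (0.75 ± 0.256, adjusted p = 0.576). Elovl1 and Elovl7 were between -0.13 and 0.28 on the log2 scale in the 4 comparisons. Between the Slc1a3 and Aspm lines of tail skin 0 of 6 members passed, in labelled cells (0.492% of all genes passed) or in total IFE (0.00572%). The lowest unadjusted p was that of Elovl6 in labelled cells, with 42.8 and 38.8 CPM in Slc1a3+ and 86.7 and 55.1 CPM in Aspm+ cells (-0.80 ± 0.318, adjusted p = 0.329 by edgeR's quasi-likelihood test). It was the 1 member with an unadjusted p under 0.05 there, none had one in total IFE, and DESeq2 and limma-voom passed none.

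Sebaceous markers moved with these differences in part. Between Slc1a3+ and Dlx1+ cells 3 of 9 tested markers passed as higher (2.31% of all genes), and between Aspm+ and Dlx1+ cells 3 of 9 (0.08%). Between the Slc1a3 and Dlx1 totals 2 of 9 markers did (0.978%), and between the Aspm and Dlx1 totals 1 of 9 (0.0343%). Their summed level was 281 to 358 CPM in tail Slc1a3+ cells and 388 to 467 CPM in Aspm+ cells, against 94.9 to 129 CPM in Dlx1+ cells. In total IFE it was 386 to 448 CPM in the Slc1a3 line and 353 to 437 CPM in the Aspm line, against 192 to 421 CPM in the Dlx1 line. Krt79, a keratin of the upper follicle and sebaceous duct, made up most of the sum, with 170 to 340 CPM in the Slc1a3 and Aspm lines and 71.2 to 409 CPM in the Dlx1 line. Awat1 had 6.33 to 12.6 CPM in the Slc1a3 and Aspm lines and 0.49 to 2.0 CPM in the Dlx1 line. Far2, a fatty acyl-CoA reductase of sebum synthesis, had 53.7 to 104 CPM in the Slc1a3 and Aspm lines and 7.17 to 15.1 CPM in the Dlx1 line. Spinous and granular markers summed to 7750 to 12400 CPM in the Slc1a3 and Aspm lines and to 6630 to 9100 CPM in the Dlx1 line, and 1 of 7 passed as higher in Slc1a3+ than in Dlx1+ cells. Bulge and germ markers summed to 248 to 1240 CPM in the Slc1a3 and Aspm lines and to 1170 to 2060 CPM in the Dlx1 line. Of these markers 2 of 8 were lower in Slc1a3+ than in Dlx1+ cells. The share of all genes that were lower there was not determined. Melanocyte markers summed to 16.3 to 28.7 CPM in the Slc1a3 and Aspm lines and to 7.82 to 11.1 CPM in the Dlx1 line, with no overlap and with 0 of 5 passing in any of the 4 comparisons. Langerhans and T cell markers summed to 7.81 to 27 CPM in the Slc1a3 and Aspm lines and to 3.06 to 7.92 CPM in the Dlx1 line, and 1 of 5 passed as higher, between the Slc1a3 and Dlx1 totals. Fibroblast markers summed to 22.4 to 39.2 CPM in the Slc1a3 and Aspm lines and to 21.9 to 25.3 CPM in the Dlx1 line, and 0 of 5 passed. The part of any of these cell types in the Elovl differences was not tested.

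**Figure D3:**
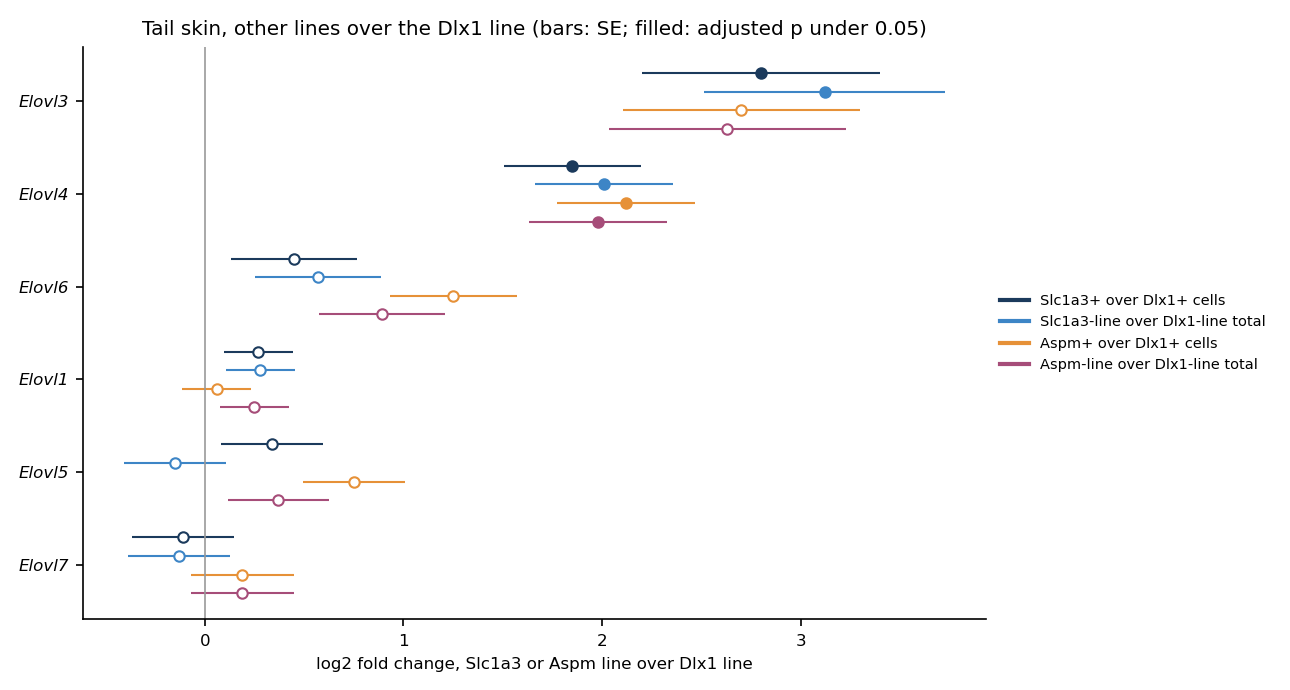
Log2 fold change in tail skin of the Slc1a3 or Aspm line over the Dlx1 line, for labelled cells and for total IFE. Points are estimates, bars standard errors, and filled points have an adjusted p under 0.05. Elovl4 is filled in all 4 comparisons at 1.85 to 2.12, and Elovl3 lies at 2.63 to 3.12.

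**Figure D4:**
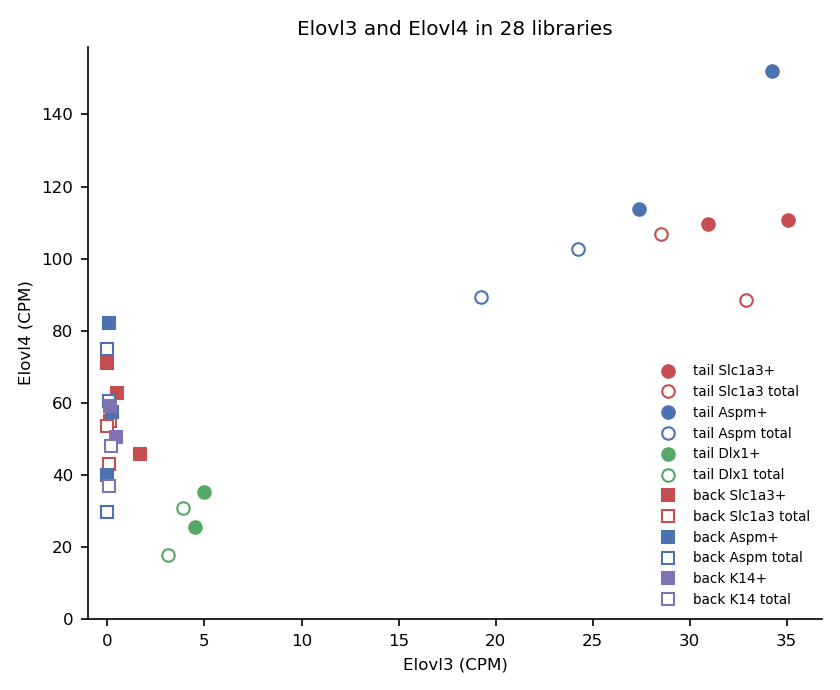
Elovl4 against Elovl3 (both CPM) in the 28 libraries. Circles are tail and squares back libraries, filled for labelled cells and open for total IFE, with colours for the lines. Tail libraries of the Slc1a3 and Aspm lines lie at the upper right (Elovl3 19.2 to 35.1 CPM, Elovl4 88.6 to 152 CPM), those of the Dlx1 line at the lower left, and back libraries spread over Elovl4 at an Elovl3 level of at most 1.66 CPM.

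The plot of Elovl4 against Elovl3 shows separate clusters of libraries, so no correlation over the libraries is given. Ordered by mean Elovl4, the groups were tail Aspm+ (133 ± 26.9 CPM, SD), tail Slc1a3+ (110 ± 0.919), tail Slc1a3 total (97.7 ± 12.8) and tail Aspm total (96.1 ± 9.36). The back groups came next, at 59.9 ± 21.2 in Aspm+, 59.8 ± 12.8 in Slc1a3+ and 54.8 ± 5.93 CPM in K14+ cells, and at 55 ± 23.2, 50.5 ± 6.6 and 42.6 ± 7.88 CPM in the Aspm, Slc1a3 and K14 totals. The tail Dlx1+ cells (30.5 ± 6.94) and their total (24.3 ± 9.19) were last. Within the upper 4 groups, within the back groups and between both Dlx1 groups no difference that was tested passed.

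Labelled cells were compared with the total IFE of the same line and site, which asks whether elongase levels differ between a basal lineage and the whole epidermis it lies in. No member passed in any of the 6 comparisons, by edgeR, DESeq2 or limma-voom. All genes passing made up 0.514%, 0.00572% and 0% for tail Slc1a3+, Aspm+ and Dlx1+ cells, and 0.109%, 0% and 0.00572% for back Slc1a3+, Aspm+ and K14+ cells. Elovl4 was above 0 in all 6, at 0.13 to 0.47 on the log2 scale, and the labelled library was the higher in 13 of 14 pairs of the same line, site and number. Summed basal and summed spinous and granular markers were also higher in the labelled library of each such pair but back Slc1a3 replicate 4. There they were at 54000 against 85900 CPM and at 12100 against 14700 CPM. The part of these markers' cells in the level of Elovl4 was not tested. The share of all genes with as many higher pairs was not determined. Elovl7 was at 0.18 to 0.21 in all 6 and higher in 10 of 14 pairs, with no unadjusted p under 0.324. Elovl6 was at -0.07 to 0.41, Elovl1 at -0.11 to 0.23 and Elovl5 at -0.41 to 0.11, and each was higher in 8 or 9 of 14 pairs. The lowest adjusted p among these 5 members was 0.87. A paired fit used a replicate block that joins labelled and total libraries of the same line, site and number. In it Elovl4 was at 0.16 to 0.46 with an adjusted p of 0.545 to 1, and none of these 5 members passed (lowest adjusted p 0.543).

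Elovl3 in back Slc1a3+ cells was the 1 case of 36 with an unadjusted p under 0.05. It had 29, 11 and 0 counts in Slc1a3+ cells (1.66, 0.513 and 0 CPM), against 3, 3 and 0 counts in their total (0.103, 0.128 and 0 CPM). In both groups replicate 4 was at 0 and replicate 1 or 2 was highest, so the groups overlapped. The ratio of summed counts was 7.85 (95% exact interval 3.31 to 22.7, counting error only), and the log2 fold change of 2.88 ± 0.844 did not pass (p = 0.00231, adjusted p = 0.576 by edgeR, 0.0512 by DESeq2, 0.999 by limma-voom), while it passed with no low-count filter (adjusted p = 0.000781). With the replicate block it was 3.14 and passed (adjusted p = 0.0399). The 3 pairs behind that value were only weakly alike (r = 0.181 to 0.217), within the range of libraries of different lines that share a number (-0.263 to 0.306). Without Slc1a3+ replicate 1 the unpaired value was 1.59 (adjusted p = 0.986). The same library had the highest summed sebaceous markers of the back libraries, 79.1 CPM against 46.6 and 48.1 CPM in the other back Slc1a3+ libraries and 49.9 to 77.0 CPM in their totals. The 77.0 CPM was that of total replicate 4, in which 8 of the 10 markers and Elovl3 were at 0, so the sum rests on few genes there. The part of sebaceous cells was not tested.

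**Figure D5:**
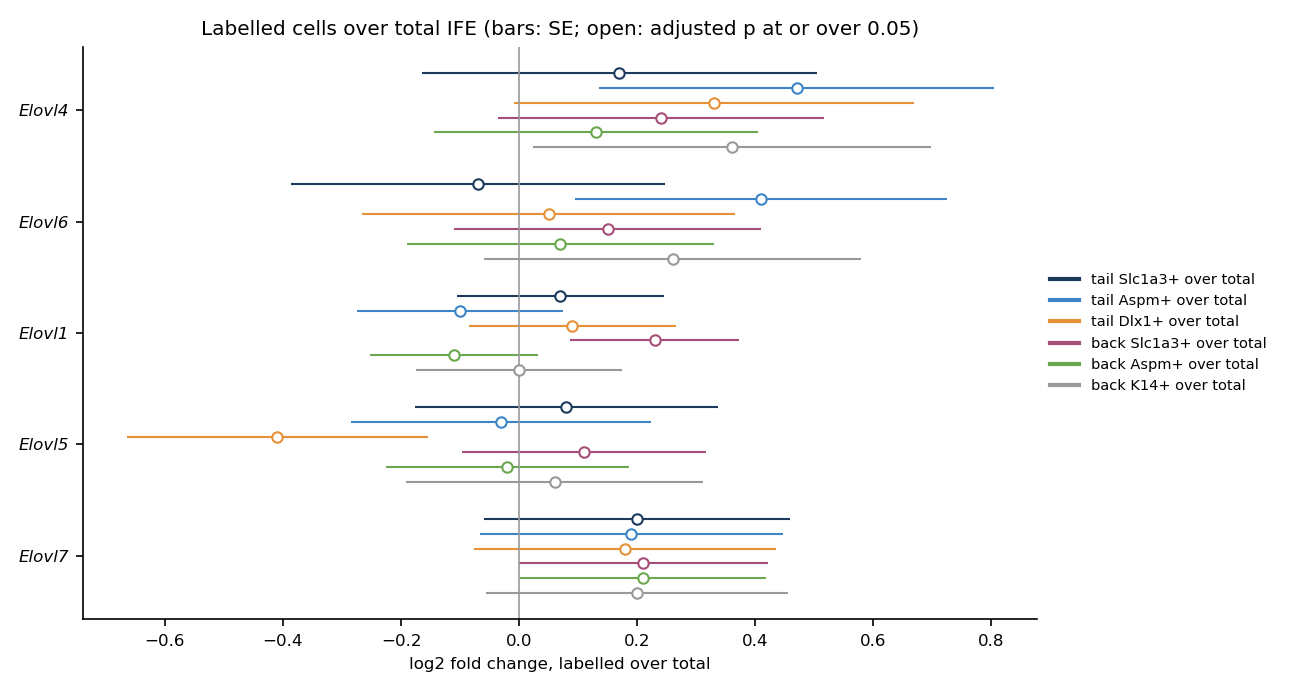
Log2 fold change of labelled cells over the total IFE of the same line and site, for the tested members other than Elovl3, whose back values rest on few counts. Points are estimates and bars standard errors, and open points have an adjusted p of 0.05 or more, which holds for all. Elovl4 and Elovl7 lie above 0 in all 6 comparisons, at 0.13 to 0.47 and 0.18 to 0.21.

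In back skin no member passed between the lines by edgeR's test. Between Slc1a3+ and Aspm+ cells 0 of 6 passed (0.16% of all genes), although Elovl3 (2.74 ± 0.788, adjusted p = 0.195) and Elovl7 (-0.49 ± 0.21, adjusted p = 0.484) were under 0.05 before adjustment. Elovl3 passed there by DESeq2 (2.81, adjusted p = 0.00997), on 40 summed counts in Slc1a3+ and 8 in Aspm+ cells. Elovl7 had 58.3, 61.4 and 57.7 CPM in Slc1a3+ cells, all below the 76.8, 96.5 and 76.3 CPM of Aspm+ cells. In total IFE of the same lines 0 of 6 passed (0.0114%), while Elovl1 (-0.35, adjusted p = 0.26) and Elovl7 (-0.49, adjusted p = 0.287) were under 0.05 before adjustment. Both were lowest in replicate 4 of the Slc1a3 total. K14+ cells against the mean of Slc1a3+ and Aspm+ cells gave 0 of 6 (0.532%) and 0 with an unadjusted p under 0.05. In K14+ cells Elovl4 had 59.0 and 50.6 CPM, Elovl6 30.4 and 20.6 CPM and Elovl5 29.1 and 26.6 CPM. Elovl3 had 0.143 and 0.429 CPM in K14+ cells and 0.203 and 0.0724 CPM in their total. The K14 total against the other totals gave 0 of 6 (2.13%), with Elovl1 at 88.3 and 90.4 CPM in the K14 line and 47.3 to 93.5 CPM in the other totals (0.30 ± 0.14, adjusted p = 0.241). Elovl1 alone was under 0.05 before adjustment there. Other than Elovl3 in labelled cells, DESeq2 and limma-voom passed no member in these 4 comparisons.

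Whether the labelled-over-total difference itself differed between sites or lines was tested in 6 comparisons, and 0 of 6 members passed in each. The share of all genes that passed was 0.0915% for Slc1a3+ (tail minus back), 0% for Aspm+ (tail minus back), 0% for Slc1a3 minus Aspm in back skin, and 0.04%, 0.0229% and 0% for Slc1a3 minus Aspm, Slc1a3 minus Dlx1 and Aspm minus Dlx1 in tail skin. Elovl3 in the Slc1a3 line had the lowest unadjusted p (-2.78 ± 1.02, adjusted p = 0.943), the labelled-over-total log2 fold change being 0.10 in tail and 2.88 in back skin, and it was the 1 member under 0.05. Another comparison, chosen after the values were seen, set the site difference in Aspm+ cells against that in Slc1a3+ cells, where 0 of 6 members and 0.137% of all genes passed. Elovl3 was at 2.64 ± 0.973 (adjusted p = 0.219), Elovl6 is given above, and these 2 members were under an unadjusted p of 0.05. Elovl4 was at 0.27 ± 0.432. DESeq2 and limma-voom passed no member in any of the 7.

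Of 7 listed partners of the elongases in the same cycle 6 were tested, and 4 were higher and 1 lower in tail than in back total IFE, where 22.5% and 23.7% of all genes were, with a median log2 fold change of 0.39 against -0.03 over all genes. Hsd17b12, the ketoacyl-CoA reductase of the cycle, averaged 229 CPM in tail and 104 CPM in back total IFE (1.15 ± 0.131, adjusted p = 1.68e-07). Hacd1, a dehydratase of the third step, averaged 5.37 CPM in tail and 0.533 CPM in back total IFE (3.53 ± 0.442, adjusted p = 6.78e-07). Hacd2 was at 0.44 (adjusted p = 0.00471) and Tecr, the enoyl-CoA reductase of the last step, at 0.35 (adjusted p = 0.0202), both with overlapping libraries. In Slc1a3+ cells 3 partners were higher and 1 lower (19.0% and 21.6% of all genes), and in Aspm+ cells 3 were higher and 0 lower (12.7% and 14.5%). The lower one was Hacd4, another dehydratase, at 0 counts in tail and 1.24 CPM in back Slc1a3+ cells, at least 7.04-fold lower in tail. Against the Dlx1 line Hacd4 alone passed, at 0 counts in Slc1a3+ cells against a mean of 0.597 CPM in Dlx1+ cells, which makes it at least 3.39-fold lower in Slc1a3+ cells (against 3 counts per library), and this call was lost without any 1 of the 4 libraries (adjusted p = 0.0707 to 0.287). The share of all genes that were lower in Slc1a3+ than in Dlx1+ cells was not determined. Hacd2 lost its call between the sites without tail Aspm total replicate 2 (0.33, adjusted p = 0.0744). Tecr lost it without tail Slc1a3 total replicate 1, tail Aspm total replicate 1 or back Aspm total replicate 2 (adjusted p = 0.118, 0.147 and 0.0586) and with only the compared groups fitted (0.103). With all 3 lines of each site averaged Tecr was at 0.09 (adjusted p = 0.513).

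All 8 tested fatty acid desaturases were higher in tail than in back total IFE (22.5% of all genes), with a median log2 fold change of 3.46 against -0.03 over all genes. Those near 0 in back skin, such as Fads3, can pass the low-count filter through tail libraries alone. That favours a call of higher in tail and can raise the median. Scd2, which desaturates the products of Elovl6, averaged 400 CPM in tail and 23.9 CPM in back total IFE (4.08 ± 0.269, adjusted p = 3.35e-11), and Scd1 500 CPM in tail and 240 CPM in back total IFE (1.06 ± 0.188, adjusted p = 6.54e-05). Fads1, the delta-5 desaturase of polyunsaturated chains, averaged 11.2 CPM in tail and 3.79 CPM in back total IFE (1.56 ± 0.244, adjusted p = 1.43e-05). Fads3, a further member of that family, averaged 4.09 CPM in tail and 0.167 CPM in back total IFE (adjusted p = 1.48e-05). In Slc1a3+ cells 4 of 8 were higher and in Aspm+ cells 5 of 8 (19% and 12.7% of all genes), with 0 lower in either. In the tail lines Scd1 was higher in Slc1a3+ than in Dlx1+ cells, with 572 against 286 CPM on average (1.0 ± 0.298, adjusted p = 0.0498), a call lost without any 1 of the 4 libraries (adjusted p = 0.192 to 0.292), and in the other comparisons with the Dlx1 line 0 of 8 passed. Scd2 overlapped between the tail lines, with 360 to 476 CPM in the Slc1a3 and Aspm lines and 398 to 522 CPM in the Dlx1 line. Scd3 is also on the list of sebaceous markers.

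Among genes that supply the elongases, 3 of 9 tested genes of fatty acid synthesis were higher and 1 lower in tail than in back total IFE, shares near those over all genes (22.5% and 23.7%), with a median log2 fold change of 0.16. Fasn, fatty acid synthase, averaged 325 CPM in tail and 233 CPM in back total IFE (0.49 ± 0.156, adjusted p = 0.0126). That call was lost without tail Slc1a3 total replicate 2 or tail Aspm total replicate 1 (adjusted p = 0.125 and 0.0755). Slc25a1, the mitochondrial citrate carrier, was at 1.58 and Me1, malic enzyme, at -1.31 (adjusted p = 3.5e-08 and 2.71e-06). Mcat, the malonyltransferase of mitochondrial fatty acid synthesis, was at 1.29 (adjusted p = 1.98e-06). Of 15 regulators of lipid synthesis 6 were higher and 3 lower, with a median of 0.12. Srebf1, a transcription factor that switches on lipid synthesis genes, averaged 434 CPM in tail and 218 CPM in back total IFE (1.0 ± 0.133, adjusted p = 1.68e-06), and Ppara, a nuclear receptor of fatty acid oxidation, 5.64 CPM in tail and 31.3 CPM in back total IFE (-2.45 ± 0.334, adjusted p = 2.38e-06). Insig1, which holds the SREBP factors in the endoplasmic reticulum, averaged 29.7 CPM in tail and 8.53 CPM in back total IFE (1.79 ± 0.218, adjusted p = 4.64e-07). Ppargc1a, a coactivator of mitochondrial genes, averaged 0.09 CPM in tail and 3.99 CPM in back total IFE (adjusted p = 8.32e-06). Srebf1 had 380 to 469 CPM in tail libraries of the Slc1a3 and Aspm lines and 420 to 472 CPM in those of the Dlx1 line. None of the 9 synthesis genes or 15 regulators passed in the 4 comparisons with the Dlx1 line.

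Genes that take up and carry acyl chains split, with 4 of 15 tested higher and 6 lower in tail than in back total IFE (22.5% and 23.7% of all genes) and a median of -0.47. Fabp5, the epidermal fatty acid binding protein, averaged 132 CPM in tail and 17.4 CPM in back total IFE (2.93 ± 0.225, adjusted p = 2.51e-10), and Dbi, which binds acyl-CoA, 352 CPM in tail and 92.3 CPM in back total IFE (1.97 ± 0.129, adjusted p = 1.51e-11). Slc27a3 (-1.78) and Acsl3 (-1.46), which activate fatty acids with coenzyme A, were lower (adjusted p = 1.9e-10 and 3.53e-08). Between Slc1a3+ and Dlx1+ cells of tail skin 3 of these 15 genes were higher (2.31% of all genes) and 1 lower (share of all genes not determined). Between the totals of these lines 2 were higher (0.978% of all genes). Against the Aspm line 0 of 15 passed, in labelled cells or totals. Fabp5 averaged 170 CPM in tail Slc1a3+ and 54.6 CPM in Dlx1+ cells (1.64 ± 0.349, adjusted p = 0.00989) and Dbi 460 CPM in tail Slc1a3+ and 221 CPM in Dlx1+ cells (1.06 ± 0.203, adjusted p = 0.00558). Both also passed between the totals of these lines (1.78 and 0.90, adjusted p = 0.019 and 0.0291). Slc27a4, a fatty acid transport protein of the epidermis, averaged 113 CPM in tail Slc1a3+ and 66.6 CPM in Dlx1+ cells (0.76 ± 0.171, adjusted p = 0.0137). Slc27a6, another member of that family, went the other way, with 0 counts in tail Slc1a3+ cells against a mean of 0.951 CPM in Dlx1+ cells (adjusted p = 0.00674). It was at least 5.39-fold lower in Slc1a3+ cells (against 3 counts per library). Slc27a6 was the 1 gene of all pathway lists that passed between labelled and total cells, at a mean of 1.15 CPM in the tail Slc1a3 total (adjusted p = 0.00875). It was also lower in tail Slc1a3+ than in Aspm+ cells, which had a mean of 1.33 CPM (adjusted p = 0.00819). The 3 calls of Slc27a6 rest on the same pair of Slc1a3+ libraries, and each was lost without Slc1a3+ replicate 1. The calls against the total and against Aspm+ cells were also lost without Slc1a3+ replicate 2 and by limma-voom (adjusted p = 0.192 and 0.157). That against the total was lost with only the compared groups fitted (0.203) and without total replicate 1, and that against Aspm+ cells without Aspm+ replicate 2. These calls of Fabp5 and Dbi between Slc1a3+ and Dlx1+ cells were lost without Dlx1+ replicate 2 (adjusted p = 0.21 and 0.121), and that of Fabp5 also without Slc1a3+ replicate 1 (0.113). That of Slc27a4 was lost without Slc1a3+ replicate 2 or Dlx1+ replicate 2 (0.143 and 0.288), and that of Slc27a6 without Dlx1+ replicate 2 (0.124). Between the totals Dbi lost its call without any 1 library (0.0826 to 0.332), and Fabp5 without Slc1a3 total replicate 1 or a Dlx1 total replicate (0.253, 0.0615 and 0.337).

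Downstream of the elongases, 6 of 12 tested genes of ceramide synthesis were higher and 3 lower in tail than in back total IFE (22.5% and 23.7% of all genes), with a median log2 fold change of 0.30. Degs1, the desaturase that turns dihydroceramide into ceramide, had the lowest p of the list and averaged 391 CPM in tail and 82.2 CPM in back total IFE (2.25 ± 0.098, adjusted p = 1.21e-14). Fa2h, which hydroxylates the fatty acid of ceramides, averaged 49.3 CPM in tail and 0.758 CPM in back total IFE (6.28 ± 0.45, adjusted p = 9.33e-11), and Cers4, a ceramide synthase, 154 CPM in tail and 2.82 CPM in back total IFE (5.95 ± 0.301, adjusted p = 2.37e-13). Cers6, a ceramide synthase that prefers shorter chains, averaged 18.5 CPM in tail and 126 CPM in back total IFE (-2.85 ± 0.229, adjusted p = 5.33e-10). Fa2h was also higher in Slc1a3+ than in Dlx1+ cells of tail skin, with 52.0 against 10.7 CPM on average (2.28 ± 0.582, adjusted p = 0.0252), a call that was lost without any 1 of those 4 libraries (adjusted p = 0.113 to 0.221) and by DESeq2 (0.0587). Fa2h also passed between the totals of these lines (2.37, adjusted p = 0.0419), a call lost without any 1 of those 4 libraries and by DESeq2. Degs1 was higher in Slc1a3+ than in Dlx1+ cells (463 against 324 CPM, adjusted p = 0.0483) and Cers6 lower (6.68 against 21.6 CPM, adjusted p = 0.00753). The call of Degs1 was lost without any 1 library (adjusted p = 0.0927 to 0.476), and that of Cers6 without Slc1a3+ replicate 1 or Dlx1+ replicate 2 (0.159 and 0.103) and by limma-voom (0.0642). Cers6 was lower in tail Slc1a3+ than in Aspm+ cells too (6.68 against 19.9 CPM, adjusted p = 0.037), which was lost without any 1 of those libraries (0.0734 to 0.523). Of 13 tested genes of acylceramide and the cornified lipid envelope, which use the products of Elovl4, 4 were higher and 5 lower in tail than in back total IFE, with a median log2 fold change of -0.30. Abca12, the lipid transporter of lamellar granules, averaged 10.6 CPM in tail and 49.2 CPM in back total IFE (-2.23 ± 0.279, adjusted p = 6.96e-07), and Aloxe3, an epidermal lipoxygenase, 7.41 CPM in tail and 21.6 CPM in back total IFE (-1.55 ± 0.272, adjusted p = 5.85e-05). Tgm1, the transglutaminase of the cornified envelope, averaged 4.24 CPM in tail and 0.235 CPM in back total IFE (4.5 ± 0.645, adjusted p = 4.53e-06). Sdr9c7, a dehydrogenase of the acylceramide pathway, averaged 2.7 CPM in tail and 0.138 CPM in back total IFE (adjusted p = 7.51e-05). These genes thus differed between the sites in both directions, and 0 of 13 passed in the 4 comparisons with the Dlx1 line. Of 11 peroxisomal genes that shorten very long chains, 4 were higher and 1 lower, with a median of 0.04. Abcd3, a peroxisomal transporter, was at -0.78 (adjusted p = 3.32e-08), and Pex5, the import receptor of peroxisomes, and Scp2, a thiolase and lipid carrier, were at 0.61 and 0.51 (adjusted p = 0.000409 and 0.000905). Acox2, an acyl-CoA oxidase, averaged 0.921 CPM in tail total IFE and had 1 count in all back total libraries of these lines (adjusted p = 0.00043). Of the named list genes, 6 of 31 between the sites in Slc1a3+ cells and 7 of 28 in Aspm+ cells lost their call under at least 1 alternative.

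The genes most like each member were ranked by Pearson r of log2 CPM over the 27 libraries other than back Slc1a3 total replicate 4, each taken as its deviation from the mean of its site, among 9995 genes with a mean of at least 5 CPM. These values describe likeness over libraries that share lines and scaling, and in tail skin the separate level of the Dlx1 line weighs on them. Elovl4 was most like Ly6g6c (r = 0.933), Krt78 (0.908) and Psapl1 (0.899). Elovl1 was most like Tecr (0.876), Aldoa (0.870) and Mapkapk3 (0.862), Tecr being the enzyme of the last step of the cycle. Elovl3 was most like Dgat2 (0.815), Ltbr (0.813) and Far2 (0.806), of which Far2 is on the list of sebaceous markers. Elovl7 was most like Add3 (0.788), Tead4 (0.755) and Pank1 (0.752). Elovl6 was most like Stam (0.741), Egr1 (0.685) and Bpifc (0.667), and Elovl5 like Egr1 (0.686), Atp6v0a4 (0.653) and Zfp870 (0.625), so that these 2 members had the least similar neighbours. Over all 28 libraries Pank1 was at 0.434 with Elovl7, and Bpifc at 0.343 and Stam at 0.185 with Elovl6, so that 1 library decided those values. The same library lowered Ly6g6c with Elovl4 to 0.726, and Dgat2, Ltbr and Far2 with Elovl3 to 0.614, 0.726 and 0.678. It raised Tecr with Elovl1 to 0.914, and Add3 and Tead4 with Elovl7 to 0.875 and 0.872. Without centring on the site the r of Stam with Elovl6 (-0.139) and of Tead4 with Elovl7 (-0.041) turned negative. Tecr was then at 0.259 and Aldoa at 0.194 with Elovl1, Ltbr at 0.068 with Elovl3 and Krt78 at 0.207 with Elovl4.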

How the data were processed

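RNA of sorted mouse epidermal cells was poly(A)-selected and made into libraries with a kit that does not record strand, per the labels' protocols. The submitters' processing notes name Trim Galore 0.6.0, cutadapt, FastQC, STAR 2.7.0e, DESeq2 1.26.0 and the build GRCm38 (mm10). The counting program, annotation and strand setting are not given in the sources used here. The authors deposited raw read counts per gene for each library, and 55536 Ensembl identifiers all matched GENCODE M21.

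Counts were fitted with edgeR 4.0.16 (R 4.3.3, TMM scaling, filterByExpr with a minimum count of 10, robust quasi-likelihood, 12 group means, 16 residual degrees of freedom), with Benjamini-Hochberg adjustment over 17493 genes. Alternatives were DESeq2 1.42.0 and its size factors, limma-voom (limma 3.58.1), no low-count filter, only the compared groups, a replicate block and leaving out each library. The script was tested on simulated data. Labelled and total libraries of the same line, site and number were taken as pairs because all 14 pairs had a correlation of their deviations over 0.1 (r = 0.181 to 0.689, 10374 genes). Where both groups hold 2 libraries, the deviations from the group mean mirror each other. Both pairs then give the same r, as in tail Slc1a3 (0.510 and 0.510), so the 14 values are not 14 separate checks. Libraries of different lines that share a number had r = -0.263 to 0.306 in 48 pairs, and the back Slc1a3 pairs, at 0.181 to 0.217, lie within that range. The pairing comes from these values and not from a statement in the labels. Intervals on counts are 95% exact and cover counting error only.

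The members and gene lists were chosen with earlier results of these data known. List genes were named by a rule of at most 4 per list and comparison, by lowest p among those that passed. The rule also names Slc27a4, Smpd1, Hsd17b4, Nipal4, Ppard and Scd3 between the sites in labelled cells and Acsl4 and Dbi in the K14 line, whose values there are not given. Genes alike to a member were the 3 with the highest r. Pparg and Scd3 are on a pathway list and on the sebaceous list.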

Additional observations from a re-analysis of the deposited data

How the results depend on the processing

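Of the Elovl results under settings other than leaving out a library, 1054 kept their direction and side of the threshold, 30 came to pass and 7 no longer passed; with a library left out the numbers were 1082, 4 and 30, and 0 reversed. Most of these results had not passed in edgeR's test to begin with, so keeping their side of the threshold does not show that the calls are stable. Only the calls of Elovl3 between the sites and of Elovl4 between tail Slc1a3+ and Dlx1+ cells were kept under every setting. The number of members passing changed as follows, and the cause was not tested. With no low-count filter it was 1 for back Slc1a3+ against total, 1 for back Slc1a3+ against Aspm+, 3 for tail Aspm+ against Dlx1+, 2 for the Aspm against Dlx1 totals, 1 for the site difference of Slc1a3+ over total and 2 for Aspm+ minus Slc1a3+ between sites. DESeq2 gave 1 for back Slc1a3+ against Aspm+, 3 for Aspm+ against Dlx1+ and 2 for the Aspm against Dlx1 totals. Only the compared groups gave 3 and 2 for the same comparisons with Dlx1, and limma-voom 2 and 2. For total IFE between sites the 4 members became 3 with no low-count filter or only the compared groups (Elovl5 lost), 5 by limma-voom (Elovl1 gained) and 5 with all 3 lines of each site (Elovl4 lost, Elovl1 and Elovl7 gained). For Aspm+ between sites the 4 became 3 by DESeq2, its size factors, no low-count filter or only the compared groups (Elovl1 lost). The replicate block between labelled and total libraries gave 1 for back Slc1a3+ against total, and without back Slc1a3 total replicate 4 also 1 there and 1 for the site difference of Slc1a3+ over total. In comparisons between sites or lines the block joins libraries that share a number and, between sites, a line, and nothing else is known to pair them. It gave 5 for total IFE between sites (Elovl1 gained) and 2 for Aspm+ against Dlx1+. Without back Slc1a3 total replicate 4 it gave 6 for total IFE (Elovl7 gained too), 2 for Aspm+ against Dlx1+, 2 for the Aspm against Dlx1 totals and 1 for Aspm+ minus Slc1a3+ between sites. Leaving out each library gave 3 to 6 for total IFE between sites, 1 to 3 for Slc1a3+ between sites, 1 to 4 for Aspm+ between sites, 1 to 2 for Slc1a3+ against Dlx1+, 0 to 2 for Aspm+ against Dlx1+, 0 to 2 for the Slc1a3 against Dlx1 totals and 0 to 1 for the Aspm against Dlx1 totals. Tail libraries were not taken as paired with back libraries of the same line and number, since r was over 0.1 in some of the 8 pairs and not in others (-0.059 to 0.321). The 2 Slc1a3+ pairs among them, at 0.215 and 0.321, lay within or above the range of the back Slc1a3 pairs of labelled and total libraries (0.181 to 0.217). Where a group was left with 1 library, it was assumed to vary like the others. Elovl3 in back skin is limited by depth, at 0 to 29 counts per library.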
